A study of Mus musculus with 26 samples.

Results

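This account concerns the livers of male Eµ-MYC mice kept under chronic jet lag lighting, taken from libraries with little B-cell RNA, and compares them with males kept under 12:12 lighting. A library was used when its Cd79a signal, a gene for a component of the B-cell receptor, was below 8 CPM (counts scaled to a common library total). The libraries were thus chosen by this measured value, and the choice left 7 of the 26 libraries of the series, that is 7 of its 10 males: 4 of 6 under 12:12 lighting (12 hours of light and 12 hours of dark; males 1, 2, 4 and 6) and 3 of 4 under jet lag (males 5, 6 and 7). The 7 held between 1.28 and 2.42 CPM of Cd79a, and the 3 that were left out (12:12 males 3 and 5 and jet lag male 8) held between 26.2 and 144 CPM, so no library lay near the limit. Cd79a alone was used in this choice; it and the other B-lineage genes are given as a description only.

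All 26 mice carried the Eµ-MYC transgene, in which an immunoglobulin heavy chain enhancer drives MYC in the B-cell lineage, and no library came from a mouse without it. Polyadenylated RNA of whole liver was read from stranded libraries after 8 weeks of either lighting. The labels used here do not give the shifting schedule, the age of the mice or the hour at which the livers were sampled. The study asked which liver transcripts changed under the jet lag schedule. Nothing in the labels says which mice shared a cage, a litter or a day, so the p-values measure only the spread between these libraries.

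The circadian clock of the liver is a loop of transcription and repression. BMAL1 (gene Arntl) pairs with CLOCK or NPAS2, binds E-box sequences and switches on the Period and Cryptochrome genes, whose proteins then repress that pair; REV-ERB proteins (Nr1d1, Nr1d2) repress Arntl, ROR proteins activate it, and the PAR bZIP factors DBP, TEF and HLF act through D-boxes against NFIL3. Through these factors the clock times much of the liver's handling of glycogen, lipid, heme and NAD, so a clock gene's level in one liver depends on the hour at which it was taken.

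Library totals ran from 45364561 to 49264925 counts, so a count of 0 allows up to 0.0661 CPM (3 counts, counting error only). Albumin (Alb) took 10.0% to 12.4% of the counts of the 7 libraries. Jet lag male 7 stood apart: 2024 of 11999 genes with a mean of at least 1 CPM differed by more than 1 on the log2 scale from the mean of the other 2 jet lag males, 1864 of them lower, against 891 for male 5, 603 for male 6 and 74 to 184 for the 12:12 males. Results that rest on this library are given with and without it.

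Sequences near an annotated start are shown for 4 clock genes. Their transcripts lay apart between the groups in the results below, and their windows hold matches to motifs of the clock's factors. Each is 300 bases around an annotated start (250 before, 50 after) from RefSeq on GRCm38.p6, written 5′ to 3′ on the gene's strand. Capitals mark matches, on either strand, to the E-box CACGTG, the D-box TTANGTAA or the nuclear receptor half-site AGGTCA; the cAMP response element TGACGTCA was also searched and had no match in these 4. No motif letters overlap another motif here.
Ciart, chr3:95882179-95882478, minus strand: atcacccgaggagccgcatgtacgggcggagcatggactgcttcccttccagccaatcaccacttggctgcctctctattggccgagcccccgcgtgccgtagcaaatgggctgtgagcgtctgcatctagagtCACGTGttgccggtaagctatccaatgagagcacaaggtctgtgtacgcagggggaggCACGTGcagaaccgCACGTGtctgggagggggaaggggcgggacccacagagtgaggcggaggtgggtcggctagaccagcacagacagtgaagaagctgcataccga
Per1, chr11:69098699-69098998, plus strand: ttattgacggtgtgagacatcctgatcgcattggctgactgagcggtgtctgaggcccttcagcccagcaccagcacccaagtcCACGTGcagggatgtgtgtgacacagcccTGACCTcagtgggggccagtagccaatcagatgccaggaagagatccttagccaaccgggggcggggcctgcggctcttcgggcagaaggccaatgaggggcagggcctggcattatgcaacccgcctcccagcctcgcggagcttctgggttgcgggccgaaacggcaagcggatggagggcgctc
Per3, chr4:151044616-151044915, minus strand: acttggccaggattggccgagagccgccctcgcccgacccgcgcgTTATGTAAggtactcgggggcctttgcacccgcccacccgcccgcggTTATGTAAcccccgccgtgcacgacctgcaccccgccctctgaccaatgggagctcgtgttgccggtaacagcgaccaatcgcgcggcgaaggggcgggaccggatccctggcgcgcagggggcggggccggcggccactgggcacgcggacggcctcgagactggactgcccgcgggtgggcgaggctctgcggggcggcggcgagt
Arntl, chr7:113207261-113207560, plus strand: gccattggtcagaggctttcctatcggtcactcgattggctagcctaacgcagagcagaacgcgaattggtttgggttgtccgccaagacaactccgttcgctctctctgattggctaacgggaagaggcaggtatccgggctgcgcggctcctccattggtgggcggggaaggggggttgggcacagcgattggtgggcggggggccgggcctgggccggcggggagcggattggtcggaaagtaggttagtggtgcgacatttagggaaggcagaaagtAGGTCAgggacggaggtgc
The Ciart window holds 3 E-boxes, whose first bases lie at -116, -58 and -44 from the start. That of Per1 holds an E-box at -166 and a half-site at -137, that of Per3 holds D-boxes at -205 and -158, and that of Arntl holds a half-site at +32. Per1 and Arntl have a further window each, at chr11:69099902-69100201 and chr7:113207215-113207514, with no match to any of the 4 motifs. The windows of Npas2 and Usp2, whose transcripts also lay apart, hold no match either. Both windows of Tef hold an E-box, at -127 and -138, and that of Hlf holds a cAMP response element at -9. Of the 32851 promoter windows in the RefSeq table, 7.15% hold an E-box, 2.32% a D-box and 16.3% a half-site. For the 14682 windows of genes tested here the shares were 9.16%, 1.68% and 13.8%. Among the windows of genes that rose under jet lag these shares were 11.3%, 1.42% and 12.1% of 141 windows, and among those of genes that fell they were 16.2%, 6.76% and 23.0% of 74 windows. Windows of the same gene can overlap, so they are not separate units. Counted by gene, the shares were 16.2%, 2.02% and 15.2% of 99 genes that rose. They were 21.8%, 5.45% (3 genes) and 30.9% of 55 genes that fell, and 11.0%, 2.05% and 16.1% of 11450 genes tested. A match is a description of letters, not of binding.

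Under jet lag 219 of 16431 genes differed in males, a called share of 1.33%, with 141 higher (0.858%) and 78 lower (0.475%). The test was edgeR's quasi-likelihood F test with Benjamini-Hochberg adjustment over all 16431 genes, at an adjusted p of 0.05. It was fitted on 18 libraries, the 7 males and the 11 females with Cd79a below the same limit, so that the groups share one estimate of spread. Of the 219, 130 differed by more than 1 on the log2 scale (79 higher, 51 lower) and 35 by more than 2, while the median log2 fold change of all genes was -0.00. In 212 of the 219 every jet lag library lay on one side of every 12:12 library. Such a gap was present in 10.0% of all genes, 6.02% higher and 4.0% lower. A fold change above 0 was present in 49.7% of all genes. The counts of list members below are to be read beside these shares of all genes.

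The number of calls moved with the libraries used. It was 103 without jet lag male 7 (71 of them among the 219), 379 without male 5 and 424 without male 6. It ranged from 102 to 188 when one of the 12:12 males was left out, and 57 genes were called in all 7 fits. A fit on the 7 males alone called 87 genes, 77 of them shared, and a fit on all 26 libraries, with no limit on Cd79a, called Nampt and Slc16a12 only. Adjusted p-values after removal of a library are quoted below where a call is lost. Groups said below to be apart are those of the 7 males used. Values of the 3 left-out males are given for some genes. In several of these, 12:12 male 3 lay among or above the jet lag livers, or jet lag male 8 lay among the 12:12 livers.

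Values are in CPM and are listed for 12:12 males 1, 2, 4 and 6 and then for jet lag males 5, 6 and 7. In the activator arm of the clock, Arntl was at 1.31, 1.58, 1.00 and 0.772 CPM in the 12:12 males and at 5.19, 23.5 and 15.7 CPM in the jet lag males. Of these 7 livers, every jet lag liver lay above every 12:12 liver, male 5 by the smallest margin. Among the males left out, however, 12:12 male 3 held 25.3 CPM, more than any jet lag liver. There 12:12 male 5 held 2.23 CPM and jet lag male 8 held 17.7 CPM. Arntl rose by 3.70 on the log2 scale (SE 0.86, adjusted p = 0.0465). This call lies close to the threshold: it was lost in 6 of the 7 fits without 1 male, all but that without jet lag male 5, with an adjusted p of up to 0.142 without jet lag male 7, and was kept with the males alone (0.0117). Npas2, the CLOCK paralogue that can replace it as the partner of BMAL1, was at 0.0626, 0.0406, 0.123 and 0 CPM against 0.502, 3.92 and 2.30 CPM. These groups did not overlap either, but the log2 difference of 5.28 (SE 1.33) missed the threshold (adjusted p = 0.0626; 0.0272 with the males alone). The fitted size depends on the prior count, since the 12:12 values lie at or near the 0.0661 CPM that a count of 0 allows.

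Clock was at 10.7, 11.2, 13.1 and 11.7 CPM against 24.2, 33.2 and 5.38 CPM. Jet lag males 5 and 6 lay above the 12:12 range and male 7 below it, and the log2 difference was 0.82 (adjusted p = 0.342). Nfil3, the repressor at D-boxes, was at 11.2, 8.22, 9.15 and 5.33 CPM against 10.4, 26.9 and 25.8 CPM, high in jet lag males 6 and 7 and inside the 12:12 range in male 5 (log2 difference 1.33, adjusted p = 0.166). Cry1, a repressor of the loop, and Rora, which encodes an ROR activator of Arntl, had log2 differences of 0.43 and -0.44 with overlapping groups. Of the 7 members of the list 1 rose, 0 fell and 5 had a fold change above 0 (49.7% of all genes did so), with a median of 0.82 beside -0.00 for all genes. Cry1 and Nfil3, both repressors, are members of this activator-arm list and are among the 5.

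In the list of the repressor arm and the PAR bZIP factors, which also holds Usp2, the balance was the other way. A fold change below 0 was found in 12 of 13 members, and the median was -1.57. In 8 members every jet lag liver lay below every 12:12 liver (4.0% of all genes did so). Neither list holds genes of a single function, so the balance is that of the lists as they were drawn up. Only Hlf passed the edgeR test, falling by 0.77 on the log2 scale (SE 0.19, adjusted p = 0.0488) from 18.2, 21.4, 18.3 and 26.5 CPM to 14.1, 14.7 and 8.68 CPM. Its groups were apart, with male 7 lowest, and the call was lost in 6 of the 7 fits without 1 male, all but that without jet lag male 6 (up to 0.211, without jet lag male 7), and with the males alone (0.212). No member rose. DESeq2, run as an alternative, called 7 members lower: Hlf and also Usp2 (adjusted p = 0.00121), Per1 (0.0178), Tef (0.0254), Per3 (0.0295), Nr1d2 (0.0305) and Bhlhe40 (0.0381). In the activator arm it called Npas2 higher as well (0.00349).

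Per1 was at 49.9, 39.3, 47.0 and 35.4 CPM in the 12:12 males and 10.6, 13.1 and 7.66 CPM under jet lag. All 3 jet lag livers were low, and the groups were well apart (log2 difference -2.05, SE 0.60, adjusted p = 0.107). Ciart, whose product CHRONO represses the CLOCK and BMAL1 pair and whose promoter holds the 3 E-boxes above, was at 12.3, 13.8, 17.2 and 19.5 CPM against 2.89, 1.10 and 0.808 CPM. Its log2 difference was -3.34 (SE 0.97, adjusted p = 0.107), again with no overlap. Usp2, a deubiquitinase gene driven by the clock, was at 27.5, 27.0, 29.3 and 28.1 CPM against 6.55, 4.77 and 1.94 CPM, a log2 difference of -2.70 (SE 0.64, adjusted p = 0.0505). The 12:12 livers differed little among themselves and the jet lag livers were all low. The left-out 12:12 males 3 and 5 and jet lag male 8 held 46.1, 52.4 and 47.7 CPM of Per1. They held 3.11, 15.7 and 3.75 CPM of Ciart and 12.2, 29.5 and 10.8 CPM of Usp2. With the 7 males alone Per1, Ciart and Usp2 passed the threshold (adjusted p = 0.00527, 0.00527 and 0.00533). The SD of log2 values of Per1 was 0.23 and 0.39 in the 12:12 and jet lag males but 0.28 and 1.56 in the females, whose spread the 18-library test shares.

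Per2 was at 51.7, 48.7, 49.9 and 37.7 CPM against 16.1, 25.5 and 3.30 CPM, and Per3, with its pair of D-boxes, at 27.1, 32.0, 31.2 and 45.1 CPM against 13.1, 5.77 and 1.79 CPM. Both were lower in all 3 jet lag livers with male 7 lowest, and neither passed the test (adjusted p = 0.213 and 0.142). Tef and Bhlhe40 (DEC1, a repressor at E-boxes) lay apart in the same direction, with log2 differences of -1.57 and -1.43 and adjusted p of 0.105 and 0.118. Other members spread widely among the jet lag livers. Dbp was at 55.0, 64.8, 69.6 and 124 CPM in the 12:12 males and at 62.4, 1.56 and 10.2 CPM under jet lag, so that male 5 lay in the 12:12 range and male 6 far below it. Nr1d1 was at 29.9, 35.8, 46.8 and 90.2 CPM against 144, 18.8 and 60.4 CPM, with male 5 above and male 6 below every 12:12 liver. Nr1d2, its paralogue, was at 49.5, 47.1, 43.8 and 55.8 CPM against 46.9, 12.1 and 7.95 CPM and was low in males 6 and 7 only. Cry2 and Bhlhe41 overlapped, with log2 differences of -0.42 and -1.32.

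This spread among the jet lag males was larger than that among the 12:12 males in all 19 clock genes with a mean of at least 1 CPM, with a median ratio of SDs of log2 values of 2.91. For all 11999 genes at that level the share was 77.6% and the median ratio 1.91. In a comparison chosen after the data were seen, without jet lag male 7, the SD was larger under jet lag in 16 of the 19 clock genes (median ratio 2.74). For all genes the share was then 54.0% and the median ratio 1.11.

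**Figure D1:**
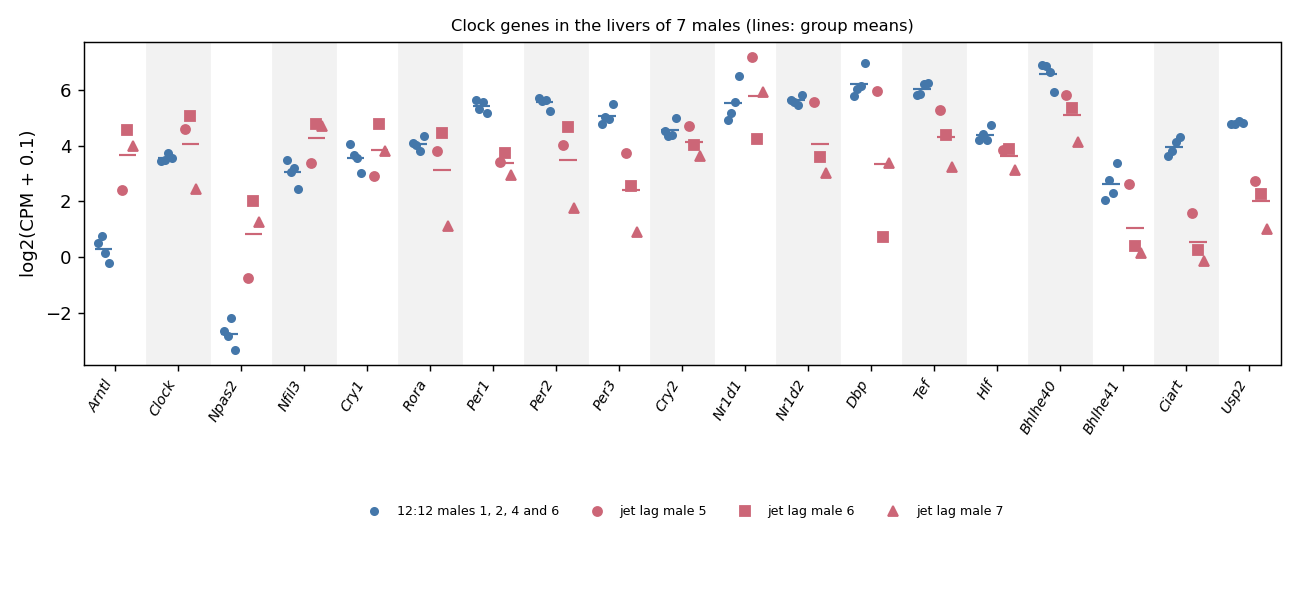
Expression of clock genes in each of 7 male livers, as log2(CPM + 0.1) on the vertical axis. On the left are 6 genes of the activator-arm list (Arntl to Rora, with the repressors Nfil3 and Cry1). On the right are the 13 genes of the repressor-arm and PAR bZIP list (Per1 to Usp2). Blue points are the 4 12:12 males, red symbols the 3 jet lag males, and lines the group means. Per1, Ciart and Usp2 are low in all 3 jet lag livers, Arntl and Npas2 are high in all 3, and Dbp and Nr1d1 spread widely among them.

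The clock's output genes in liver gave more calls than the clock genes themselves. Of 19 genes in a list of such outputs, 5 rose, 7 fell and 7 did not pass, with a median of -0.54. The called share of this list is large beside 1.33% of all genes, but the list was compiled with earlier results of these data known. Elovl3, an elongase of very long chain fatty acids whose level swings with the clock and is higher in male liver, was at 13.3, 12.7, 25.0 and 34.0 CPM against 131, 265 and 235 CPM. Each jet lag liver lay well above the highest 12:12 liver, and Elovl3 rose by 3.34 on the log2 scale (SE 0.42, adjusted p = 0.000994). The left-out 12:12 males 3 and 5 held 0.207 and 24.1 CPM and jet lag male 8 held 0.868 CPM. Dtx4, of the Deltex family of ubiquitin ligases, was at 4.38, 4.12, 3.93 and 5.03 CPM against 21.0, 29.1 and 26.6 CPM and rose by 2.56 (SE 0.31, adjusted p = 0.000646). Tubb2a, a beta-tubulin gene whose reads may be shared with its near-identical paralogue Tubb2b, was at 20.4, 11.0, 20.3 and 13.9 CPM against 73.5, 146 and 128 CPM and rose by 2.83 (SE 0.39, adjusted p = 0.00158). These 3 genes kept their calls in all 7 fits without 1 male. Left-out 12:12 males 3 and 5 held 20.9 and 3.27 CPM of Dtx4 and 90.1 and 17.2 CPM of Tubb2a. Jet lag male 8 held 10 and 24.6 CPM of these 2 genes.

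Por, the oxidoreductase that supplies electrons to microsomal cytochromes P450, was at 663, 620.0, 737 and 663 CPM against 279.7, 262 and 242 CPM. The 3 jet lag livers were close to one another and far below the 12:12 range, and Por fell by 1.37 on the log2 scale (SE 0.22, adjusted p = 0.00252), a call kept in all 7 fits without 1 male. Rgs16, a regulator of G protein signalling, was at 18.1, 17.8, 13.3 and 34.4 CPM against 2.22, 1.10 and 0.574 CPM, the largest fall of the list (log2 fold change -4.06, SE 0.87, adjusted p = 0.0309). All 3 jet lag livers were low, whereas the left-out jet lag male 8 held 94.2 CPM, and with all 26 libraries the log2 difference was 0.39. The call was lost without 12:12 male 1, 2 or 6 and without jet lag male 6 or 7 (up to 0.176, without jet lag male 7).

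Wee1, a kinase that holds back entry into mitosis, fell from 15.1, 17.3, 16.2 and 19.2 CPM to 4.69, 5.50 and 1.94 CPM (log2 fold change -2.09, SE 0.42, adjusted p = 0.0173). Coq10b, whose product binds coenzyme Q, fell from 27.3, 22.9, 26.4 and 30.1 CPM to 7.63, 6.15 and 4.19 CPM (log2 fold change -2.18, SE 0.39, adjusted p = 0.00905). Upp2, a uridine phosphorylase, fell from 434, 325, 527 and 739 CPM to 229, 115 and 121 CPM (log2 fold change -1.75, adjusted p = 0.0323). The groups of these 3 genes did not overlap. Leo1, of the PAF1 transcription elongation complex, and Pnp, of purine salvage, rose by 1.06 and 0.87 (adjusted p = 0.0205 and 0.0170). The 5 calls of this paragraph were lost without jet lag male 7 (adjusted p = 0.113, 0.0845, 0.198, 0.0944 and 0.104), that of Upp2 also without 12:12 male 1, 4 or 6 or jet lag male 6, that of Leo1 without 12:12 male 2 or 6, that of Pnp without 12:12 male 4, and that of Pnp with the males alone (0.0762). Wee1, Rgs16, Upp2, Coq10b, Leo1, Pnp and Alas1 are outside the rule for named genes and were chosen after their values were seen.

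Insig2 encodes an endoplasmic reticulum protein that retains the SREBP activators of lipid synthesis. It was at 27.1, 21.3, 22.9 and 27.1 CPM in the 12:12 males and 83.2, 105 and 100.2 CPM under jet lag. The groups were narrow and far apart, and Insig2 rose by 1.97 on the log2 scale (SE 0.25, adjusted p = 0.000817, and at most 0.00611 in the fits without 1 male). The left-out 12:12 males 3 and 5 held 55.5 and 17.6 CPM and jet lag male 8 held 44.3 CPM. The other 11 members of the INSIG and SREBP list did not pass: Insig1 was at 143, 110, 225 and 133 CPM against 181, 203 and 79.2 CPM, an overlap, and the log2 difference of Srebf1 was -0.22. Lpin1, a phosphatidate phosphatase gene, lay apart at 73.0, 75.5, 88.7 and 71.2 CPM against 41.2, 56.1 and 9.91 CPM (log2 difference -1.13, adjusted p = 0.324). None of 21 genes of cholesterol synthesis passed and their median was 0.01. Among 16 genes of fatty acid synthesis the only call was Fads2, a desaturase, which fell by 0.76 (adjusted p = 0.0389; 0.161 without jet lag male 7 and 0.103 with the males alone, and lost without each other male but jet lag male 6).

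Nampt, the rate-limiting enzyme of NAD salvage, was at 110.5, 154, 108 and 80.0 CPM against 39.3, 55.9 and 25.9 CPM. All jet lag livers lay below the lowest 12:12 liver. The left-out 12:12 males 3 and 5 held 96.7 and 108 CPM and jet lag male 8 held 60.8 CPM. Nampt fell by 1.49 (SE 0.27, adjusted p = 0.00986). The call was lost without jet lag male 7 (0.0755) and with the males alone (0.0661), and kept with all 26 libraries. It was the only one of 20 genes of NAD synthesis and use to pass the edgeR test. Nmrk1, a nicotinamide riboside kinase, was at 18.1, 18.1, 17.5 and 14.4 CPM against 6.32, 14.0 and 5.66 CPM (log2 difference -0.97, adjusted p = 0.142), apart but with male 6 near the 12:12 range. Qprt and Kynu, of synthesis from tryptophan, lay apart in the other direction, with log2 differences of 0.38 and 0.49 (adjusted p = 0.129 and 0.0816). DESeq2 called Nmrk1 lower (adjusted p = 0.0471) and Kynu higher (0.0289). The list's median was -0.10.

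Among 14 glycogen genes 1 rose and 1 fell, with a median of -0.04. Gys2, the liver glycogen synthase, was at 416, 378, 404 and 508 CPM against 193, 172 and 152 CPM and fell by 1.32 (SE 0.25, adjusted p = 0.0111). Ppp1r3c, a subunit that targets protein phosphatase 1 to glycogen, was at 14.0, 9.58, 13.1 and 10.3 CPM against 32.1, 41.5 and 41.4 CPM and rose by 1.71 (SE 0.34, adjusted p = 0.0158). Both pairs of groups were apart, and both calls were lost without jet lag male 7 (0.0767 and 0.10), that of Ppp1r3c also without 12:12 male 2. Pygl, the liver glycogen phosphorylase, named after its values were seen, was at 383, 418, 537 and 531 CPM against 656, 751 and 620.0 CPM (log2 difference 0.53, adjusted p = 0.054). No gene of 18 in the control of glucose passed; Pck1, for gluconeogenesis, was at 2620, 1490, 1623 and 1928 CPM against 1201, 320 and 740 CPM with an adjusted p of 0.276.

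Among 31 genes of heme synthesis and xenobiotic metabolism 1 rose and 3 fell (0.858% and 0.475% of all genes did so), with a median of 0.14. Clpx, the unfoldase of the mitochondrial ClpXP protease, which acts on the heme enzyme ALAS, was at 68.6, 61.3, 57.4 and 57.3 CPM against 195, 271 and 335 CPM. It was high in all 3 jet lag livers and rose by 2.14 (SE 0.36, adjusted p = 0.00550). Alas1, the first enzyme of heme synthesis, was at 813, 1560.0, 1946 and 880.5 CPM against 331, 979 and 84.0 CPM, with male 6 inside the 12:12 range and male 7 far below it (log2 difference -1.47, adjusted p = 0.278). Cyp2a5, a coumarin hydroxylase, was at 1639, 1929, 1996 and 2114 CPM against 686, 683 and 545 CPM and fell by 1.60 (SE 0.30, adjusted p = 0.0112). Its near-identical neighbour Cyp2a4, a steroid hydroxylase, was at 242, 267, 356 and 468 CPM against 87.2, 106 and 75.3 CPM and fell by 1.90 (SE 0.31, adjusted p = 0.00336). Reads of these 2 copies can be confused, so their calls are not separate. The calls of Clpx and Cyp2a5 were lost without jet lag male 7 (0.0590 and 0.0845). Cyp2b10 and Cyp2e1, named after their values were seen, lay apart in opposite directions, with log2 differences of 1.68 and -0.46 and adjusted p of 0.089 and 0.119.

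**Figure D2:**
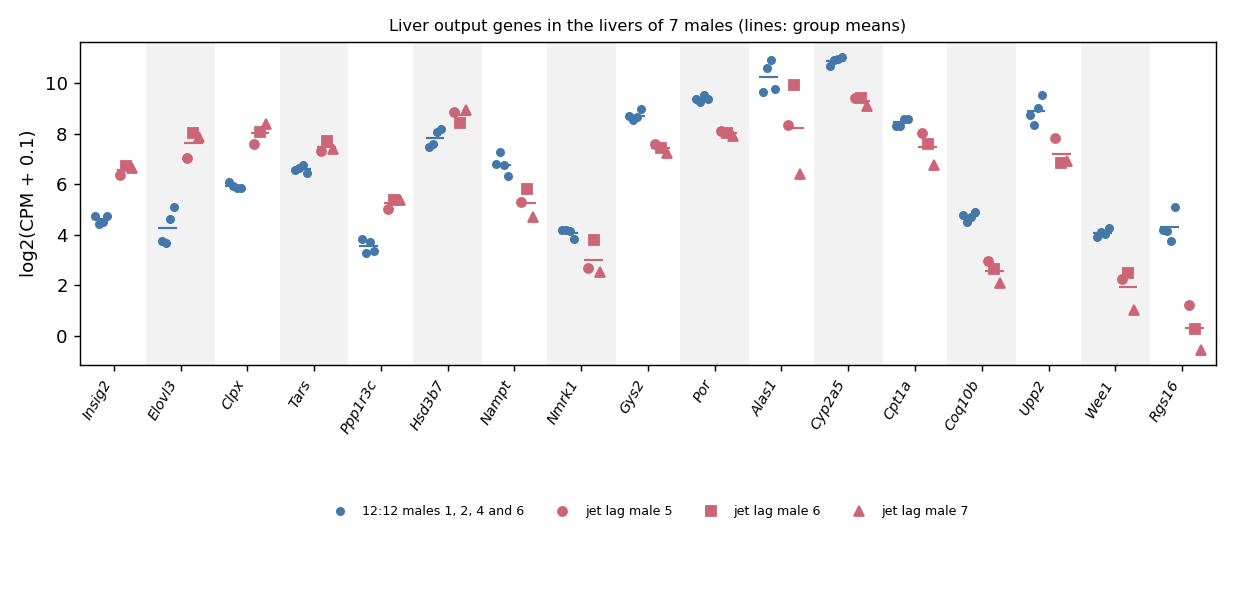
Expression of 17 metabolic and clock output genes in each of 7 male livers, as log2(CPM + 0.1); blue points are the 4 12:12 males, red symbols the 3 jet lag males, and lines the group means. Insig2, Elovl3 and Clpx lie higher in all 3 jet lag livers and Por, Gys2 and Coq10b lower, while Alas1 spreads from 84.0 to 979 CPM among them.

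The genes with the smallest p-values were mostly outside the clock lists. Pde9a, a phosphodiesterase of cyclic GMP, was at 8.91, 9.15, 10.1 and 9.46 CPM against 29.3, 30.0 and 29.2 CPM. Both groups were narrow, and it rose by 1.64 (SE 0.20, adjusted p = 0.000646). Gldc, the glycine decarboxylase of the mitochondrial glycine cleavage system, was at 101, 88.4, 128 and 152 CPM against 367, 354 and 295 CPM and rose by 1.52 (SE 0.20, adjusted p = 0.000745). Cldn1, a claudin of tight junctions, was at 5.49, 5.60, 6.14 and 6.86 CPM against 29.4, 27.7 and 14.8 CPM and rose by 1.97 (SE 0.25, adjusted p = 0.000745), male 7 being the lowest of the jet lag livers. Tjp3, the junction scaffold ZO-3, was at 8.68, 10.7, 11.0 and 10.5 CPM against 36.8, 55.1 and 48.6 CPM and rose by 2.21 (SE 0.32, adjusted p = 0.00184). The left-out 12:12 males 3 and 5 and jet lag male 8 held 19.1, 7.31 and 8.77 CPM of Pde9a and 329, 124 and 162 CPM of Gldc. They held 24.4, 6.42 and 9.61 CPM of Cldn1 and 32.3, 9.95 and 8.09 CPM of Tjp3. Bile duct cells also make tight junctions. The summed level of 12 genes that mark them ran from 39.7 to 45.4 CPM in the 12:12 males and from 49.6 to 52.3 CPM under jet lag, with 0 of the 9 tested members called, 7 of 9 fold changes above 0 and Muc5b at 0 in all 7 livers. Krt19 was at 0.696 to 1.48 CPM against 1.46 to 2.29 CPM. The part of this in the Cldn1 and Tjp3 results was not tested. In bulk liver, a change in the number of cells of a type and a change in RNA per cell cannot be told apart.

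Eps8l2, of the Eps8 family of actin regulators, rose by 1.58 (adjusted p = 0.000917) from 20.3, 16.5, 18.5 and 24.3 CPM to 74.9, 51.3 and 55.3 CPM. The transcript B230206H07Rik rose by 1.64 (adjusted p = 0.00141) beside it. The annotations of these 2 genes overlap on chromosome 7 (141338911 to 141363020 and 141359178 to 141365110, GRCm38.p6) and the counting's use of strand is unknown here, so they may share reads. Slc44a1, a choline transporter, was at 29.3, 31.6, 31.9 and 34.6 CPM against 54.0, 59.7 and 58.9 CPM and rose by 0.85 (adjusted p = 0.00184). Its groups were apart and the jet lag livers lay close together.

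Trim24, a transcriptional coregulator of nuclear receptors, led the genes that fell. It was at 27.4, 31.5, 29.5 and 33.2 CPM against 12.5, 14.8 and 13.0 CPM, with no jet lag liver near the 12:12 range, and fell by 1.18 (SE 0.16, adjusted p = 0.000917). The 3 left-out males held 58.3, 29.8 and 52.7 CPM. Slc16a12, a creatine transporter, was at 64.8, 80.3, 65.0 and 56.9 CPM against 28.4, 30.4 and 15.1 CPM and fell by 1.46 (SE 0.21, adjusted p = 0.00106). Gpcpd1, which cleaves glycerophosphocholine, was at 121, 104, 110.2 and 173 CPM against 57.7, 27.2 and 19.2 CPM and fell by 1.93 (SE 0.29, adjusted p = 0.00223). Gpcpd1 and Slc44a1, which both handle choline compounds, changed in opposite directions.

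Rnase4, a secreted ribonuclease, fell by 0.97 (adjusted p = 0.00106) from 595, 530.1, 456 and 477 CPM to 322, 260.3 and 218 CPM; its annotation overlaps that of Ang on chromosome 14. The unnamed locus LOC102633833 was at 4.13, 2.11, 3.77 and 5.69 CPM against 0.711, 0.508 and 0.574 CPM and fell by 2.73 (adjusted p = 0.00106). Acot4, a peroxisomal acyl-CoA thioesterase, fell by 1.12 (adjusted p = 0.00273; 0.0661 with the males alone). Efhd2, a calcium-binding protein gene, and Lipg, the endothelial lipase, fell by 1.06 and 1.68 (adjusted p = 0.00486 and 0.00881). Il6ra, the interleukin-6 receptor, was at 31.1, 36.4, 21.6 and 22.2 CPM against 13.4, 13.2 and 7.38 CPM and fell by 1.32 (adjusted p = 0.00761). Morc3, a nuclear ATPase, was at 25.1, 24.8, 25.5 and 20.0 CPM against 14.0, 14.7 and 7.63 CPM and fell by 1.00 (adjusted p = 0.00838). The groups of all 7 genes of this paragraph were apart. Without jet lag male 7 the calls of Lipg and Il6ra were lost (0.0749 and 0.0553), and with the males alone those of Il6ra (0.0689) and Morc3 (0.103).

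**Figure D3:**
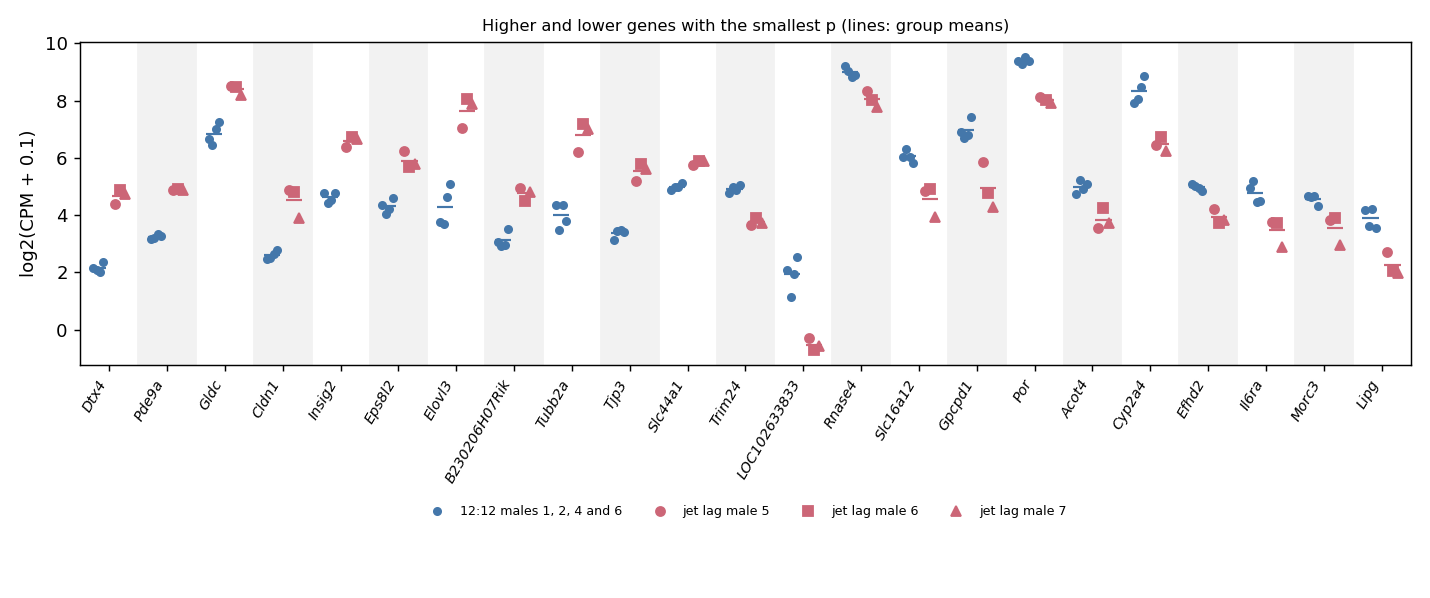
Expression of 11 of the 12 higher (left, Dtx4 to Slc44a1) and the 12 lower genes (right, Trim24 to Lipg) with the smallest p among called genes of at least 1 CPM, as log2(CPM + 0.1) in each of 7 male livers; blue points are 12:12 males, red symbols jet lag males, and lines the group means. In each of these genes the 4 12:12 livers and the 3 jet lag livers are apart, as the choice by p favours.

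Other metabolic lists gave at most 1 call in each direction. In 23 genes of fatty acid oxidation and PPARA targets, Cpt1a, which admits long-chain fatty acids to mitochondria, fell by 0.94 from 315, 321, 389.9 and 384 CPM to 263, 195 and 108 CPM (adjusted p = 0.0186), and Acaa1b, a peroxisomal thiolase, rose by 0.92 (adjusted p = 0.0488). Hsd3b7, an enzyme of bile acid synthesis, rose by 0.89 (adjusted p = 0.0333), alone among 21 bile acid genes. Hal, which degrades histidine, rose by 0.73 (adjusted p = 0.0313), while Slc16a12, described above, was the only member to fall among 18 amino acid and urea genes. The calls of Cpt1a, Acaa1b, Hsd3b7 and Hal were lost without jet lag male 7 and with the males alone, with adjusted p of up to 0.0671, 0.322, 0.191 and 0.113 without 1 male (the last without 12:12 male 1) and of 0.147, 0.256, 0.122 and 0.256 with the males alone. Acaa1b lost its call also without 12:12 male 1, 2 or 6, Hsd3b7 without 12:12 male 1, 2 or 4, and Hal without those or jet lag male 5.

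Tars, the threonyl-tRNA synthetase, was at 93.9, 99.3, 108 and 87.1 CPM against 159, 211 and 169.9 CPM and rose by 0.89 (SE 0.17, adjusted p = 0.0101), a call kept in all 7 fits without 1 male. It was the only one of 22 tested tRNA synthetase and integrated stress response genes to pass; Atf5, named after its values were seen, was at 98.7, 141, 94.1 and 96.8 CPM against 207, 202 and 320 CPM (adjusted p = 0.085). Bbc3, which encodes the pro-death protein PUMA, was at 1.52, 2.46, 2.38 and 2.73 CPM against 7.30, 5.26 and 8.23 CPM and rose by 1.61 (adjusted p = 0.0104), alone among 16 p53 targets. Ccne1, cyclin E1, was at 2.15, 2.44, 2.25 and 2.36 CPM against 0.899, 0.467 and 0.383 CPM and fell by 2.01 (adjusted p = 0.0124), alone among 23 proliferation genes; with all 26 libraries its log2 difference was 0.33. Riok2, a kinase of small ribosomal subunit maturation, fell by 0.72 (adjusted p = 0.0209), alone among 24 ribosome biogenesis genes. Lrp5, a Wnt co-receptor, was at 58.8, 73.0, 69.8 and 66.5 CPM against 143, 126 and 103 CPM and rose by 0.88 (adjusted p = 0.00486). The summed level of the 21 Wnt and pericentral genes that hold Lrp5 was lower under jet lag, 9295 to 10871 against 12364 to 13486 CPM, and was mostly Cyp2e1. The calls of Bbc3, Ccne1 and Riok2 were lost without jet lag male 7 (0.0605, 0.0698 and 0.0918), and that of Riok2 also without 12:12 male 1, 2 or 4 or jet lag male 5 and with the males alone (0.181).

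Myc, the gene of the transgene, was at 2.94, 22.4, 3.32 and 20.3 CPM in the 12:12 males and 2.80, 5.50 and 2.68 CPM under jet lag. The 12:12 males 2 and 6 were high and the other livers low, so the groups overlapped (log2 difference -1.72, adjusted p = 0.247); the table does not separate the transgene from the mouse gene. The 3 left-out males held 112, 47.8 and 293 CPM. The summed level of 20 B-lineage genes in the 7 livers was 49.5 to 101 CPM under 12:12 lighting and 66.3 to 110 CPM under jet lag, and Rag2 was at 0 in all 7. Blnk, an adaptor of B-cell receptor signalling that was singled out after its values were seen, was at 3.69, 2.66, 4.65 and 5.69 CPM in the 12:12 males. It was at 1.80, 1.54 and 1.98 CPM under jet lag, so the groups lay apart (log2 difference -1.24). It is among the 219 genes called (edgeR adjusted p = 0.0114) and was called in all 7 fits without 1 male (at most 0.0347). It was not called in the edgeR fits with the males alone (0.126), with all 26 libraries (0.853) or with the replicate block (0.2045). Since Cd79a, another B-lineage gene, chose the libraries, these values are a description only.

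Fos, an immediate early gene that answers within minutes to handling of animals or tissue, was at 2.73, 0.751, 0.410 and 0.331 CPM against 0.188, 0.162 and 0.191 CPM. It was highest in 12:12 male 1 and passed the test (log2 fold change -2.58, SE 0.59, adjusted p = 0.0312), a call lost without 12:12 male 1, without each jet lag male (up to 0.10, without male 7) and with the males alone (0.298). Of the 11 tested immediate early genes 10 had a fold change below 0, with a median of -0.67 and a summed level of 77.2 to 138 CPM against 70.4 to 86.8 CPM. Their part in the results above was not tested. The 13 mitochondrially encoded genes gave 0 calls and summed to 57355 to 69264 CPM against 64139 to 71018 CPM.

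No gene passed in the lists of glucose control, cholesterol synthesis, endoplasmic reticulum stress, heat shock, cold-inducible proteins, glucocorticoid response, growth hormone and IGF signalling, hepatocyte identity, acute phase or interferon response, nor in those that mark T and NK cells, Kupffer cells, neutrophils, red cells, stellate cells, endothelium, bile duct, pancreatic acini or fat. In the interferon list 21 of 24 fold changes were below 0, with a median of -0.20 and a smallest adjusted p of 0.0782. In the 17 glucocorticoid response genes the median was -0.27 and 13 were below 0; the list holds Per1. The fat list summed to 1259 to 2294 CPM against 2462 to 2625 CPM, nearly all of it Car3, which hepatocytes also express, and Plin1 and Lep were at 0 in all 7 livers. Of 20 genes that are higher in male liver only Elovl3 passed, and of 19 that are higher in female liver only Cyp2a4.

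**Figure D4:**
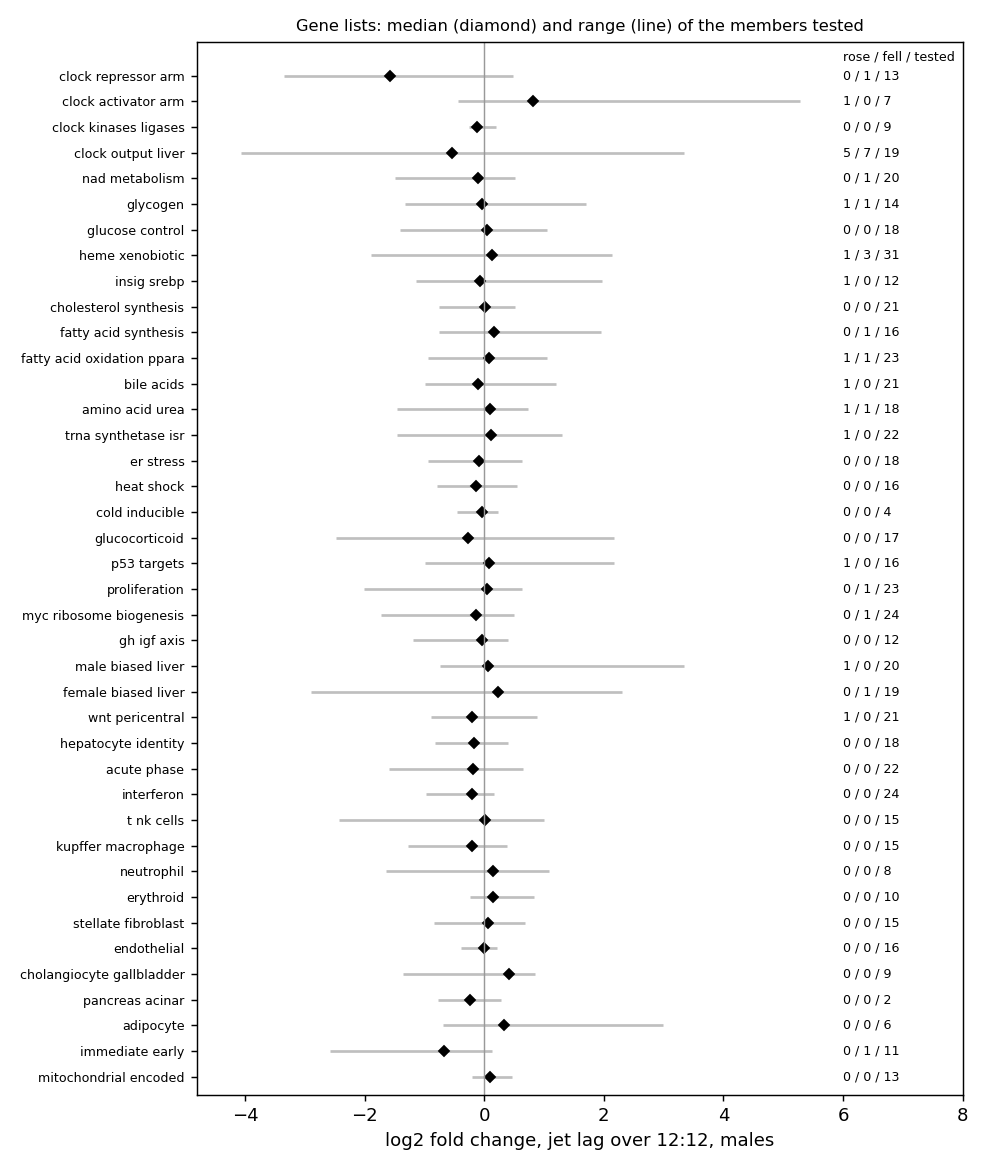
Log2 fold changes (jet lag over 12:12, males) of the members tested in each gene list: diamonds are medians, lines run from the lowest to the highest member, and the numbers at the right give how many rose, how many fell and how many were tested. The repressor-arm list, with the PAR bZIP factors and Usp2, has the lowest median, -1.57. The activator-arm list, with Cry1 and Nfil3, has the highest, 0.82. Most other medians lie close to 0.

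The 11 female libraries with Cd79a below the same limit (6 under 12:12 lighting, 5 under jet lag) gave 13 calls (0.0791% of genes), 9 higher (0.0548%) and 4 lower (0.0243%), of which 8 were also called in males: Ak4, Asap2, Cldn1, Eps8l2, Gm34490, Gys2, Nedd4l and Pde9a. Gm34490, a transcript with no assigned function that was singled out after its values were seen, was at 0, 0.0406, 0 and 0 CPM in the 12:12 males and 0.439, 0.995 and 1.23 CPM in the jet lag males. Of the 219 genes called in males, 200 (91.3%) had a fold change of the same sign in females, against 54.6% of all 16431 genes. Their median size was 1.12 on the log2 scale in males and 0.43 in females, and 218 of the 219 were larger in males, as a choice by the male result favours. No gene passed the test of the difference in response between the sexes (edgeR, 0 of 16431, with 1442 at an unadjusted p under 0.05; DESeq2 called 9). A larger response in males is therefore not shown.

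The smallest p of that difference belonged to Trim24 (adjusted p = 0.130), which had a log2 fold change of 0.01 in females and a mean of 87.9 ± 14.7 CPM in the 12:12 females (SD, n = 6) against 92.1 ± 15.6 CPM in the jet lag females (SD, n = 5). LOC102633833, Gpcpd1, Elovl3 and Smim22 followed, with adjusted p for the difference of 0.205, 0.449, 0.449 and 0.449 and female log2 differences of -0.26, -0.29, 0.69 and -0.47. Smim22, which encodes a small membrane protein, rose by 1.49 in males (adjusted p = 0.0313), a call that was lost without jet lag male 7 (0.292), without each 12:12 male and with the males alone (0.255). Arntl had a female log2 difference of 3.56 (adjusted p = 0.0821), Insig2 of 0.89 (0.0984), Nampt of -0.63 (0.426) and Rgs16 of -0.19 (0.974).

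**Figure D5:**
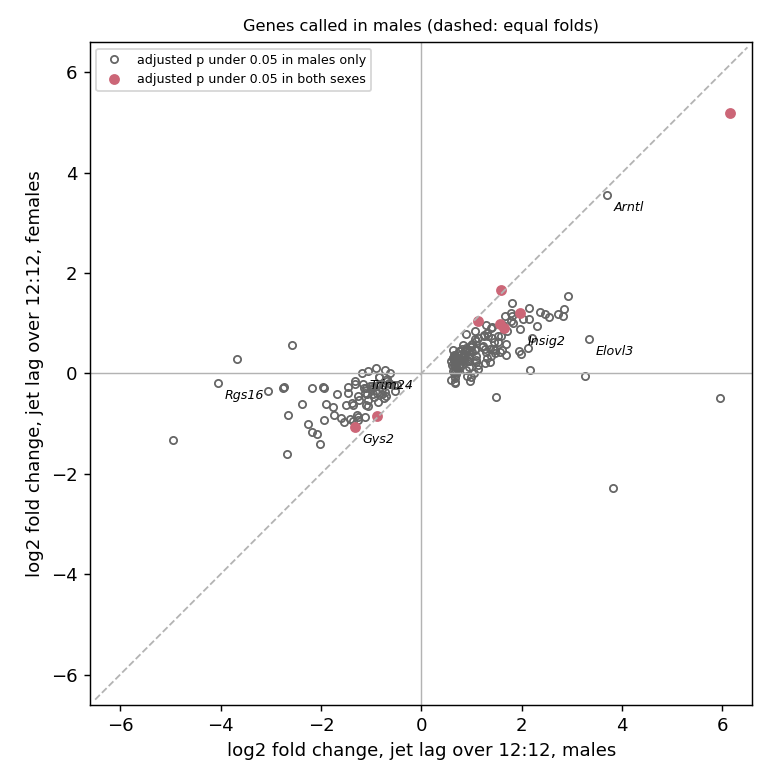
Log2 fold changes of jet lag over 12:12 lighting in males (horizontal axis) and females (vertical axis) for the 219 genes called in males; open circles were called in males only and filled circles in both sexes, and the dashed line marks equal fold changes. Most points lie nearer to 0 in females than in males, and 200 of 219 have the same sign.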

How the data were processed

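Liver RNA libraries were described by lighting and sex in the labels; their titles gave the groups and numbers. The submitters' processing notes name STAR, DESeq2 and mm10 with no versions; which program counted the reads, on which annotation and strand, is not given in the sources used here. Expected counts per gene name, not normalized by the authors, made up the raw table that was deposited: 45.8% of its cells held 0.015, which was read as 0, 1.44% were not whole (tolerance 1e-06) and were rounded, and lines that share a name were summed (36930 lines, 36883 names). The other deposited tables were not used. CPM is the count divided by the library total. Libraries with Cd79a below 8 CPM were kept.

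Genes passing filterByExpr (count minimum 10) were scaled by TMM and fitted in edgeR 4.0.16 (R 4.3.3) with a quasi-likelihood F test on 4 group means over 18 libraries. SE is the size of the log2 fold change over the square root of F, and p-values were adjusted by Benjamini and Hochberg. Every library pair of a male group differed by more than sampling noise (chi-square per degree of freedom at least 31.5). The fits were tested on simulated data. Alternatives were other library sets, DESeq2 1.42.0, limma 3.58.1 voom, other scaling and filtering, a B-lineage covariate, a replicate block and removal of single males.

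Named genes were the 12 higher and 12 lower called genes with the smallest p and a mean of at least 1 CPM, the clock and NAD lists, Insig2, Myc, up to 4 called genes of each other list, and the 5 with the smallest p for the sex difference. A few genes that the rule names are not reported here. The members and lists were chosen with earlier results of these data known. Promoter windows came from a RefSeq table. Windows of named genes on chromosome 18 were left out, and 70 of 88 such genes had a window on another chromosome.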

Additional observations from a re-analysis of the deposited data

Results flagged for a closer look

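Among the 72 genes described with values, the 4 12:12 males were searched for a single value far from the other 3, judged by its gap to the nearest value over the whole range against Dixon's limit for 4 values. In 2 genes a value stood apart, and chance alone gives about 1 in 20. Morc3 was at 20.0 CPM in 12:12 male 6 and at 24.8 to 25.5 CPM in the others (ratio 0.874). Nmrk1 was at 14.4 CPM in the same library and at 17.5 to 18.1 CPM in the others (ratio 0.832). In both genes this value lay on the side of the jet lag livers.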

How the results depend on the processing

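The 219 calls (141 higher, 78 lower) became 87 (56 and 31) with the males alone, 2 (0 and 2) with all 26 libraries, and 592 (361 and 231) with DESeq2. Without 1 male they ranged from 102 to 424, the higher ones from 66 to 260 and the lower ones from 27 to 164, the extremes being the fits without 12:12 male 1 and jet lag male 6 for the totals. A Cd79a limit of 4 CPM kept the same 18 libraries and so the same 219 calls. A limit of 16 CPM added only jet lag female 2 (14.5 CPM of Cd79a) and gave 207 calls. Neither limit changed the males used, so they cannot show whether the male result depends on the limit. The B-lineage covariate, DESeq2 size factors, voom and no filter left 187 to 227 calls. The test of the difference between the sexes called 0 genes, 9 with DESeq2, 1 with no filter and 0 to 3 without 1 male. The replicate block joined all libraries of the same number, males with females, and gave 30 calls (23 and 7), 29 of them among the 219. Within a sex, only 5 pairs of a 12:12 and a jet lag library share a number, 1 of them male. Their deviations correlated at -0.13 to 0.03, and 0 jet lag libraries correlated best with their own number. The samples thus share a number and no pairing is shown, so the block may tie unrelated mice together. Of 49 called genes described here, 24 were called in all 7 fits without 1 male. The 219 called genes kept their direction in the other fits that tested them, but 7 had the other sign with all 26 libraries. Of the called genes described here, these were Rgs16 at 0.39 and Ccne1 at 0.33. Among genes not called, Myc was then at 1.02 and Cry1 at -0.0095; without 1 male Cry1 ranged from -0.19 (without jet lag male 6) to 0.81, Rora from -1.19 to 0.048 (without jet lag male 7) and Nr1d1 from -0.27 (without jet lag male 5) to 0.93, and Nr1d1 was at -0.17 with the replicate block. The cause of these changes was not tested. A count of 0 allows 0.0661 CPM, which limits genes as low as Npas2 under 12:12 lighting.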
